A study of Mus musculus with 6 samples.

Results

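The mature neutrophil genes described here are 10 genes of late neutrophil maturation, S100a8, S100a9, Ltf, Camp, Ngp, Lcn2, Chil3, Mmp8, Retnlg and Cd177. They were taken from the deposited count table by gene symbol, each matched 1 row, and together they are 10 of 55573 genes listed. All 10 passed the filter on low counts and were among the 20646 genes tested. The libraries came from LSK cells, the fraction of bone marrow without lineage markers and with Sca-1 and c-Kit that holds stem cells and multipotent progenitors, sorted after magnetic enrichment of c-Kit-positive cells from C57BL/6J mice aged 3 months. There were 3 wild-type libraries (Etv6+/+) and 3 libraries heterozygous for the R355X allele of Etv6, an ETS-family repressor of transcription. The mutant is written Etv6+/- in the genotype field, and the allele is named in the series text. The labels give no treatment, do not list the antibodies of the lineage cocktail, and do not say whether replicates were separate or pooled animals, so the spread behind every p-value is that between these libraries and may be technical.

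Neutrophils build their granules in sequence as they mature in the bone marrow. Azurophil granules, filled with myeloperoxidase and serine proteases, are made first by promyelocytes, and specific granules, with lactoferrin, lipocalin and cathelicidin, follow in myelocytes and metamyelocytes. Gelatinase granules and the surface and secreted products of the last stages come after these, and members of the C/EBP family, C/EBP epsilon above all, drive the specific granule programme. LSK cells lie upstream of all these stages.

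Depth lay between 45.2 M and 92.2 M expected counts, and mutant replicate 1 was both the deepest and the highest in nuclear ribosomal RNA (8.61% against 6.30% to 7.19% in the others). Etv6 measured 424 ± 27.2 CPM in wild-type against 344 ± 40.5 CPM in mutant libraries (SD, n = 3), with no overlap between genotypes (exact two-sided permutation p = 0.1, the smallest that 3 against 3 allows; adjusted p = 0.245 in edgeR's quasi-likelihood test). CPM is the count scaled to library size with TMM factors and is not corrected for gene length. The gate markers Ly6a, which encodes Sca-1, and Kit were at 71.7 to 93.5 CPM and 351 to 451 CPM over the 6 libraries. Markers of other cells were summed in CPM for each library, and genes with an unadjusted p under 0.05 in edgeR's test were counted. Of all tested genes, 10.6% had such a p in either direction. The sum of 14 monocyte and macrophage genes ran from 184 to 256 in wild-type and from 196 to 277 in mutant libraries, and 7 of the 14 had an unadjusted p under 0.05 (6 higher in the mutant). The sum of 8 B cell genes ran from 105 to 138 and from 147 to 327, and 7 of the 8 had an unadjusted p under 0.05, all higher. That of 9 mast cell, basophil and eosinophil genes ran from 52.0 to 58.9 and from 66.3 to 82.0, with 8 of the 9 under that p (7 higher), and that of 8 T and natural killer cell genes from 12.5 to 19.7 over all 6 libraries, with 2 of 8 (1 higher, 1 lower). Single genes of these lists passed edgeR's test, as did 0.266% of all tested genes. They were Fcer1a of the mast cell list (0.499 ± 0.0776 against 2.49 ± 0.380 CPM) and Klrb1c of the T and natural killer cell list (1.46 ± 0.423 against 5.18 ± 1.09 CPM), both higher in the mutant. DESeq2 called these 2 and also Prg2, Cd4 and 4 of the 14 monocyte and macrophage genes (Cd5l, Cd68, C1qa and C1qc), against 2.00% of the genes it gave an adjusted p. Of these only Cd4 was lower in the mutant. DESeq2 called 0 of the 8 B cell genes. Of 10 erythroid genes, whose sum ran from 205 to 373 and from 238 to 406, the globin genes Hbb-bt (18.1 ± 2.75 against 78.5 ± 22.7 CPM) and Hbb-bs (29.5 ± 4.65 against 70.4 ± 21.5 CPM) were called as higher. Monocyte and macrophage, B cell, mast cell and erythroid sums were all highest in mutant replicate 1. Among mutant libraries these sums, and the T and natural killer cell sum, were lowest in mutant replicate 3. The T and natural killer cell sum was highest in wild-type replicate 1. No tested gene of the 4 immune cell lists was at 0 in any library, and the part of such cells in the values below was not tested.

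The promoter sequences are shown for 5 members because the group splits by library pattern, as described below: Ltf, Ngp and Chil3 stand for the larger set and Mmp8 and Retnlg make up the smaller one. Each is 80 bases ending just before the more upstream of the RefSeq and GENCODE starts, from RefSeq's GRCm38.p6 promoter table, on the strand of the gene. Capitals mark matches on either strand to GGAA, the core that ETS factors bind, and to TTGCNNAA, a core of C/EBP sites. The windows are chr9:111019191-111019270 (plus strand) for Ltf, chr9:110419667-110419746 (plus) for Ngp, chr3:106167565-106167644 (minus) for Chil3, chr9:7558349-7558428 (plus) for Mmp8 and chr16:48872528-48872607 (plus) for Retnlg.
Ltf: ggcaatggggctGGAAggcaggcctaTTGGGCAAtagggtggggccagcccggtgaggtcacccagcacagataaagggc
Ngp: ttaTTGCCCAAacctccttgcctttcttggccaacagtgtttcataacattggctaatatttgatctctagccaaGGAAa
Chil3: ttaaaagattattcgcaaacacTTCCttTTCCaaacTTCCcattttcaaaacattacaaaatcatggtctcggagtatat
Mmp8: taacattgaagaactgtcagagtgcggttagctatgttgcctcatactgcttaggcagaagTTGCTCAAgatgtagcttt
Retnlg: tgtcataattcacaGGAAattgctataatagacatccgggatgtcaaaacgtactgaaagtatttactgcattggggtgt

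Over the 250 bases before the RefSeq start, all 10 members matched the table, with 1 window each. TTGCNNAA, searched on both strands, occurred in 6 of the 10 (S100a9, Ltf, Ngp, Lcn2, Mmp8 and Retnlg), while 9.56% of all 32851 promoter windows of that length held it. Counted from the RefSeq start, the match lay 75 bases before it in Ltf, 138 and 11 bases before it in Ngp, and 19 bases before it in Mmp8. The printed windows of Ltf and Ngp end at GENCODE starts that lie upstream of the RefSeq ones. The Ngp match at 11 bases therefore lies past the end of its printed window, inside the GENCODE gene. GGAA was found in all 10 members and in 93.4% of all windows. Of its longer forms, AGGAAG was found in 6 members and 29.5% of windows, and CGGAA in 2 members (Lcn2 and Cd177) and 25.2% of windows. Of the other 6 patterns searched, TATAAA (2 members, 7.59% of windows) and ATAAAA (4 members, 10.2%) were read on the gene's strand only and overlap each other. AGATAA (3 members, 9.99%), TGTGGT (1 member, 14% of windows), TTGCAA (0 members, 5.34%) and an NF-kappaB core (0 members, 1.21%) were read on both strands. These are matches of letters within a window and were not tested.

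Per length, the calprotectin genes were among the most abundant transcripts of these stem and progenitor libraries. On the TPM scale, which shares a fixed total among transcripts after correction for length (here the union of exons), S100a9, on chromosome 3 from 90692632 to 90695721 in mm10, averaged 4966 ± 715 (SD over the 6 libraries of both genotypes). It ranked between 7th and 14th of all genes, depending on the library. S100a8, its neighbour from 90668978 to 90670035, averaged 2044 ± 317 TPM and ranked between 23rd and 33rd. Their proteins form calprotectin, a calcium- and zinc-binding complex that signals through Tlr4 and the receptor encoded by Ager. The cathelicidin-related genes followed, with Ngp at 1093 ± 183 TPM and Camp at 811 ± 134 TPM. Below them came Chil3 at 287 ± 61.2, Lcn2 at 203 ± 36.3, Ltf at 132 ± 22.1, Retnlg at 63.8 ± 21.9, Cd177 at 35.4 ± 4.0 and Mmp8 at 10.6 ± 3.25 TPM. Each gene exceeded the next in all 6 libraries, except that Retnlg exceeded Cd177 in 5 of 6. The SD ranges of Ngp and Camp, and of Chil3 and Lcn2, overlapped, and with the length of the longest transcript Lcn2 (331 TPM) came before Chil3 (260 TPM). All 10 together took between 0.231% (mutant replicate 3) and 0.370% (mutant replicate 1) of the expected counts of a library.

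None of the 10 members differed between genotypes past the threshold. Quasi-likelihood tests in edgeR, adjusted by Benjamini-Hochberg over all genes, called 0 of the 10, where 0.266% of all tested genes were called (0.189% as higher and 0.0775% as lower in the mutant). Chil3 alone had an unadjusted p under 0.05, with a lower mutant level, as had 10.6% of all tested genes in either direction and 4.80% with a lower level. DESeq2 called 0 of 10, against 2.00% of the genes it gave an adjusted p, and limma-voom 0 of 10, against 0.199%. Of the 10, 6 had a fold change below 0, against 49.4% of all genes, and the median log2 fold change was -0.09, against 0.0019 over all genes tested. That balance depended on single libraries. Without mutant replicate 3, 9 of 10 members were above 0 (median 0.06), and without mutant replicate 1, 0 of 10 were (median -0.20). Without wild-type replicate 1 the split was 5 and 5 (median -0.01). The number of members with an unadjusted p under 0.05 moved between 0 and 3. It was 3 without mutant replicate 2 (Chil3 lower, Mmp8 and Retnlg higher), 2 without mutant replicate 3 (Chil3 lower, S100a8 higher), 2 without mutant replicate 1 (Camp and Chil3, both lower) and 0 without wild-type replicate 1. In each of these fits edgeR called 0 members, and the share of all tested genes with an unadjusted p under 0.05 was not counted. In bulk libraries such as these, fewer cells of a type and less RNA per cell cannot be told apart.

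**Figure D1:**
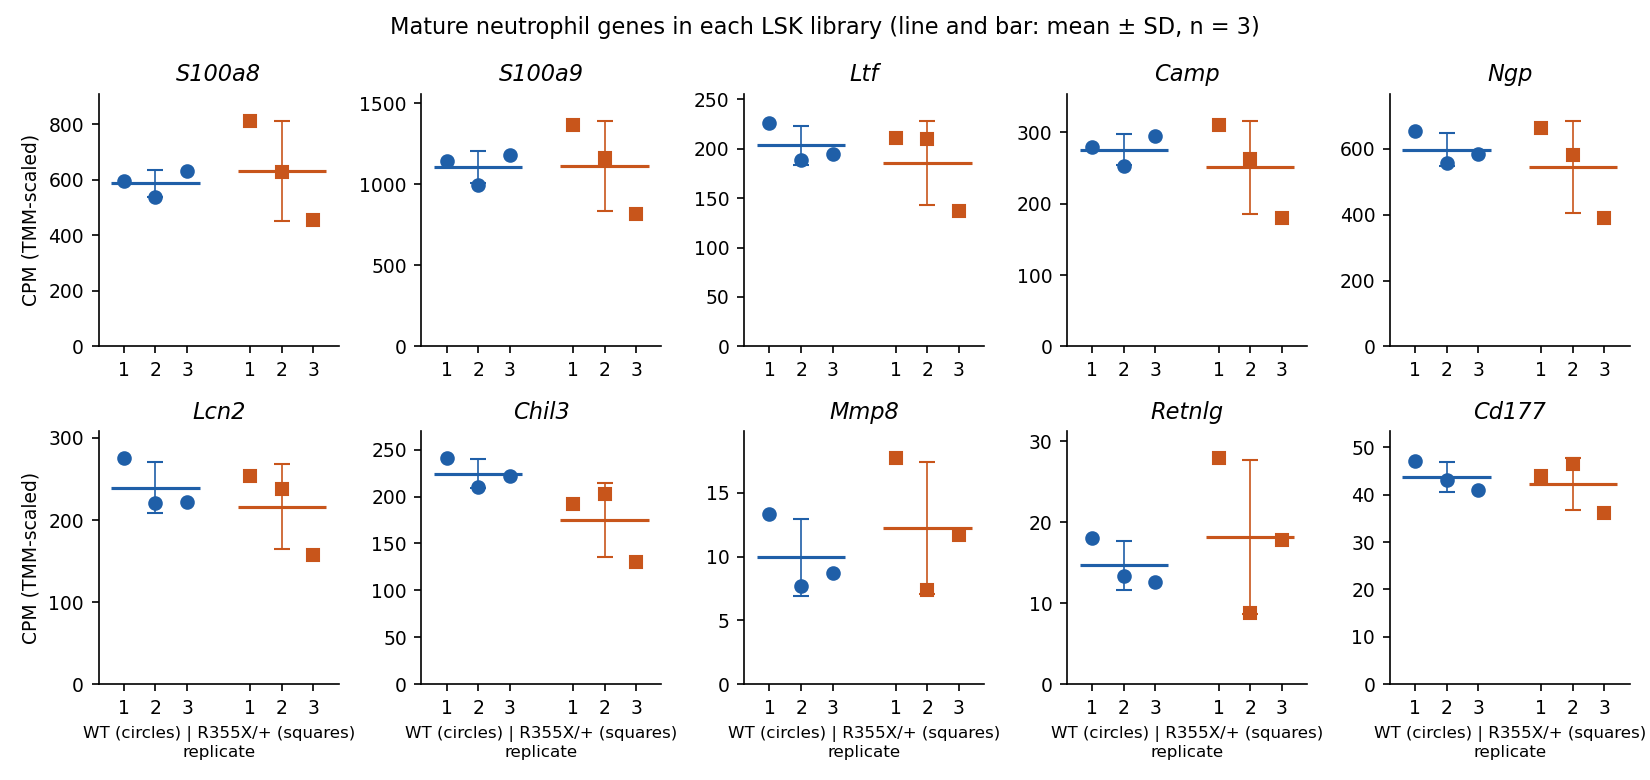
Level of each of the 10 genes in CPM (vertical axis, from 0) in the 3 wild-type libraries (circles) and the 3 Etv6 R355X/+ libraries (squares), by replicate number, with the mean and SD of each genotype (n = 3). Mutant replicate 3 was lowest for 8 of the 10 genes, while Mmp8 and Retnlg were lowest in mutant replicate 2, and the genotypes overlapped for all but Chil3.

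The calprotectin subunits, like every other member, had a larger SD in CPM among mutant than among wild-type libraries. S100a8 measured 594, 536 and 632 CPM in wild-type replicates 1, 2 and 3, and 813, 626 and 454 CPM in mutant replicates 1, 2 and 3. The highest and the lowest library were both mutant, so the genotypes overlapped. Its log2 fold change was 0.10 (SE 0.16; adjusted p = 0.870 in edgeR's test), which puts the mutant level at 108% of wild type with a 95% interval from 83.8% to 138%. S100a9 measured 1142, 995 and 1182 CPM in wild-type libraries against 1366, 1161 and 817 CPM in mutant libraries. The same libraries were its extremes, and its mutant level was 101% of wild type (interval 80.1% to 127%; log2 fold change 0.01, SE 0.15). Without mutant replicate 1 the log2 fold changes were -0.12 for S100a8 and -0.16 for S100a9, and without mutant replicate 3 they were 0.29 and 0.19. That of S100a9 was also below 0 without wild-type replicate 2 (-0.06) and without mutant replicate 2 (-0.02). Within libraries the pair kept close to a fixed proportion, since the CPM ratio of S100a9 to S100a8 stayed between 1.68 and 1.92.

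The specific granule genes Ltf, Camp, Ngp and Lcn2 were all low in mutant replicate 3 and close to each other elsewhere. Ltf encodes lactoferrin, which binds iron, and lies on chromosome 9 from 111019271 to 111042767. It measured 226, 189 and 195 CPM in wild-type libraries against 211, 210 and 137 CPM in mutant libraries. Lcn2 encodes lipocalin 2, which takes up the iron carriers of bacteria, and lies on chromosome 2 from 32384633 to 32388252. It measured 275, 221 and 222 CPM in wild-type libraries against 254, 238 and 157 CPM in mutant libraries. For both genes, mutant replicates 1 and 2 lay inside the wild-type range and mutant replicate 3 below it.

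Camp and Ngp encode cathelin-domain proteins, Camp being the precursor of the antimicrobial peptide CRAMP, and lie on chromosome 9 from 109847379 to 109849617 and from 110419747 to 110423012. Camp measured 279, 252 and 295 CPM in wild-type libraries against 310, 262 and 180 CPM in mutant libraries. Ngp measured 653, 556 and 584 CPM in wild-type libraries against 663, 583 and 389 CPM in mutant libraries. Here too the only library outside the wild-type range on the low side was mutant replicate 3. The log2 fold changes of these 4 genes ran from -0.15 (Lcn2, SE 0.15) to -0.13 (Ltf, SE 0.14), with mutant levels from 90.4% to 91.5% of wild type, and the interval of each included 100%. Without mutant replicate 3 they turned to 0.04 for Lcn2, 0.05 for Ltf, 0.05 for Camp and 0.06 for Ngp. The CPM ratio of Ltf to Lcn2 varied by 2.91% (coefficient of variation over 6 libraries) and that of Camp to Ngp by 5.67%.

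Chil3 was the only member whose genotypes did not overlap, here with the mutant lower. Of all tested genes, 16.3% did not overlap, 7.84% with the mutant lower and 8.45% with it higher. It encodes a secreted chitinase-like protein made by neutrophil precursors and macrophages, and lies on chromosome 3 from 106147554 to 106167564. It measured 241, 211 and 221 CPM in wild-type libraries against 192, 203 and 130 CPM in mutant libraries. The gap between the lowest wild-type and the highest mutant library was narrow. In the mutant Chil3 stood at 78.1% of wild type, with an interval from 63.4% to 96.1% that is not adjusted for the number of genes. The log2 fold change of -0.36 (SE 0.14) had an adjusted p of 0.399 in edgeR's test. With no filter on low counts edgeR gave an adjusted p of 0.0112, and over the other alternatives it ran from 0.127 (DESeq2) to 0.632. Without mutant replicate 3 the log2 fold change was -0.18, and without mutant replicate 2 it was -0.47. The related gene Chil4, which could share reads with it, measured at most 0.595 CPM in any library.

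Mmp8 and Retnlg, both low in number of reads, followed another order of libraries. Mmp8 encodes neutrophil collagenase and lies on chromosome 9 from 7558456 to 7568485. It measured 13.3, 7.72 and 8.74 CPM in wild-type libraries against 17.7, 7.35 and 11.7 CPM in mutant libraries. Retnlg encodes resistin-like gamma, a secreted product of late neutrophils, and lies on chromosome 16 from 48872621 to 48874496. It measured 18.1, 13.3 and 12.6 CPM in wild-type libraries against 27.9, 8.80 and 17.7 CPM in mutant libraries. For both, mutant replicate 1 was highest and mutant replicate 2 lowest of all libraries, so the mutant range enclosed the wild-type range.

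The fold changes of this pair were the least precise of the group. Retnlg had a log2 fold change of 0.31 (SE 0.32), a mutant level of 124% of wild type with an interval from 76.2% to 202%. Mmp8 had a log2 fold change of 0.30 (SE 0.29), 123% of wild type with an interval from 79.2% to 192%. Without mutant replicate 1 the values were -0.15 for Retnlg and -0.07 for Mmp8, and without mutant replicate 2 they were 0.64 and 0.57. For Mmp8 the value was 0.58 without wild-type replicate 1 and 0.15 without wild-type replicate 2, and for Retnlg it was 0.49 without wild-type replicate 1. Counts were 377 to 1548 per library for Mmp8 and 459 to 2436 for Retnlg.

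Cd177 varied least. It encodes a surface protein of neutrophils that binds the adhesion molecule encoded by Pecam1, and lies on chromosome 7 from 24743983 to 24760311. It measured 47.1, 43.0 and 41.0 CPM in wild-type libraries against 44.0, 46.6 and 36.0 CPM in mutant libraries. In the mutant Cd177 stood at 96.6% of wild type with an interval from 83.0% to 112% (log2 fold change -0.05, SE 0.099), and the log2 fold change was 0.05 without mutant replicate 3 and 0.0076 without wild-type replicate 1. The range between its lowest and highest library was the narrowest of the 10, followed by that of Ltf (1.65-fold), and Retnlg had the widest (3.16-fold).

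**Figure D2:**
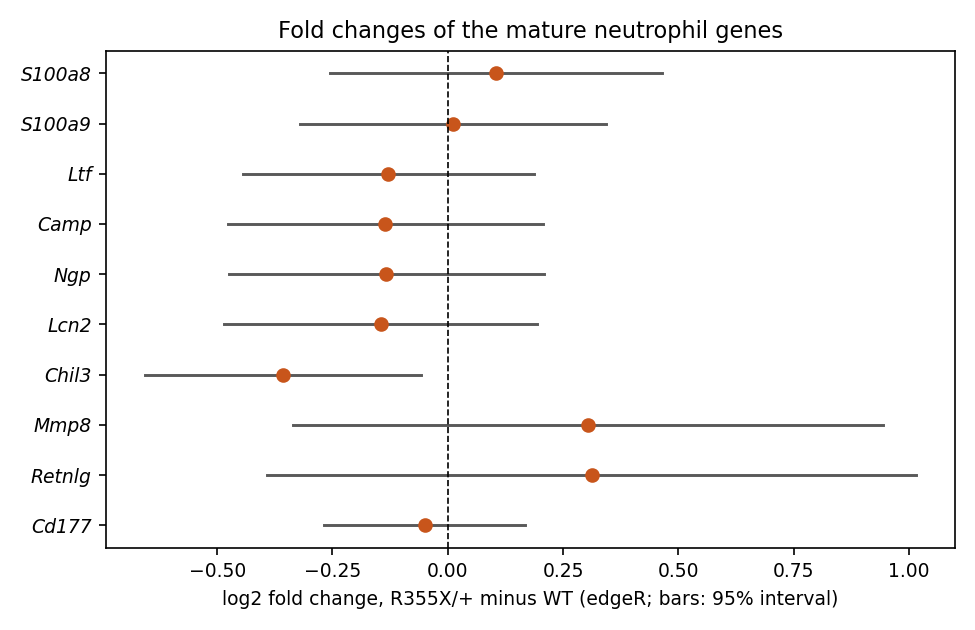
Log2 fold change of each gene, Etv6 R355X/+ minus wild type, from edgeR (points) with its 95% interval (bars, not adjusted for the number of genes), and a dashed line at 0. The interval of Chil3 lies below 0 and those of the other 9 genes include 0, with the widest bars for Retnlg and Mmp8.

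The 10 genes showed 2 patterns over the libraries. In mutant replicate 3, S100a8, S100a9, Ltf, Camp, Ngp, Lcn2 and Chil3 stood at 61.0% (Chil3) to 70.9% (S100a8) of the mean of the other 5 libraries. Cd177 stood at 81.3%, Mmp8 at 106% and Retnlg at 110%. Mutant replicate 3 was the lowest library for 8 of the 10 members, and for 16.0% of all tested genes. Correlations of log2 CPM over the 6 libraries describe the same split. Among the 7 abundant genes (21 pairs) Pearson's r ran from 0.51 to 0.99 with a median of 0.89, and r was 0.95 between Mmp8 and Retnlg. Between these 2 and the other 8 (16 pairs) it ran from -0.21 to 0.41. All of these values share the same 6 libraries and their scaling. For every 100 CPM of Camp, Retnlg ran from 3.36 CPM (mutant replicate 2) to 9.86 CPM (mutant replicate 3).

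Azurophil granule and granulocyte progenitor genes, the earlier step of the same lineage, were highest in a different library. Of 16 listed and tested, 13 were highest in wild-type replicate 3, as were 18.0% of all tested genes, while 0 of the 10 mature neutrophil genes were. Mutant replicate 3 was lowest for 9 of the 16 and for 16.0% of all tested genes. Mpo, which encodes myeloperoxidase, measured 2510, 2624 and 4688 CPM in wild-type libraries against 2221, 2673 and 2015 CPM in mutant libraries. The CPM ratio of Camp to Mpo accordingly ran from 0.0630 in wild-type replicate 3 to 0.139 in mutant replicate 1. In edgeR's test 0 of the 16 were called, against 0.266% of all tested genes. An unadjusted p under 0.05 with a lower mutant level was found for 5 of the 16 and for 4.80% of all tested genes, and 0 of the 16 had such a p with a higher level. DESeq2 called 2 of them, Cst7 and Gstm1, against 2.00% of the genes it gave an adjusted p, and limma-voom 0, against 0.199%. The cystatin gene Cst7 measured 43.1 ± 8.57 CPM in wild-type against 29.9 ± 3.14 CPM in mutant libraries (adjusted p = 0.185), and Gstm1 171 ± 35.6 against 124 ± 15.1 CPM (adjusted p = 0.252 in edgeR's test). The protease gene Prtn3 measured 350 ± 128 against 252 ± 19.4 CPM, and the protease inhibitor gene Serpinb1a 162 ± 14.6 against 143 ± 11.6 CPM. The median log2 fold change of the 16 was -0.39, with 13 below 0, and with each library left out in turn it ran from -0.50 (without wild-type replicate 1) to -0.08 (without wild-type replicate 3). The number with an unadjusted p under 0.05 was then 12 without wild-type replicate 1, 10 without wild-type replicate 2, 9 without mutant replicate 2, 5 without mutant replicate 3, and 3 without wild-type replicate 3 or mutant replicate 1, and 0 were called each time. Whether this group and the 10 members differ in fold change was not tested.

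**Figure D3:**
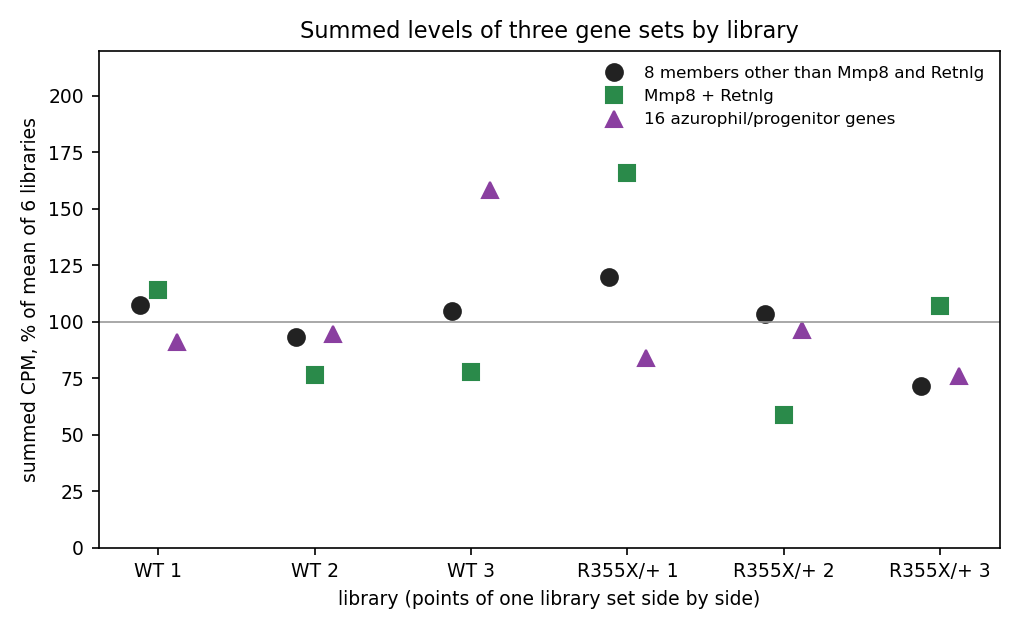
Summed CPM by library, as a percentage of its mean over the 6 libraries, for the 8 members other than Mmp8 and Retnlg (circles), for Mmp8 with Retnlg (squares) and for the 16 azurophil granule and progenitor genes (triangles). The 8 members were lowest in mutant replicate 3 (71.4%), Mmp8 with Retnlg lowest in mutant replicate 2 (58.8%) and highest in mutant replicate 1 (166%), and the progenitor genes highest in wild-type replicate 3 (158%).

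Of 28 other genes of late neutrophil maturation, all tested, 0 were called by edgeR, DESeq2 or limma-voom. Unadjusted p in edgeR fell below 0.05 for 5 of the 28, 4 lower and 1 higher in the mutant. The same held for 10.6% of all tested genes in either direction, and for 4.80% with a lower level. The median log2 fold change of the 28 was -0.10, with 13 above and 15 below 0. It was 0.02 without mutant replicate 3 and -0.01 without wild-type replicate 1. Anxa1, which encodes annexin A1, measured 122 ± 4.10 CPM in wild-type against 99.7 ± 12.8 CPM in mutant libraries, and Hp, which encodes haptoglobin, 56.3 ± 16.3 against 40.2 ± 5.34 CPM. Lrg1 measured 5.93 ± 0.947 and 4.16 ± 0.697 CPM, and Csf3r, the receptor for granulocyte colony-stimulating factor, 131 ± 6.22 against 118 ± 7.90 CPM. AA467197, the gene with the higher level, measured 3.78 ± 0.586 against 4.99 ± 0.404 CPM. Adjusted p of these 5 ran from 0.274 to 0.458 in edgeR's test. Ly6g, the surface marker of mature neutrophils, was present at 3.28 to 5.76 CPM, lowest in mutant replicate 3. The gelatinase gene Mmp9 and the chemokine receptor gene Cxcr2 were highest in mutant replicate 1, at 15.6 and 17.4 CPM. So were 6 of the 10 members, Mmp8, Retnlg, S100a8, S100a9, Camp and Ngp. Mmp9 was lowest in wild-type replicate 3 (8.09 CPM) and Cxcr2 in mutant replicate 2 (10.8 CPM). Mutant replicate 1 was the highest library for 11 of these 28 genes and for 24.4% of all tested genes.

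**Figure D4:**
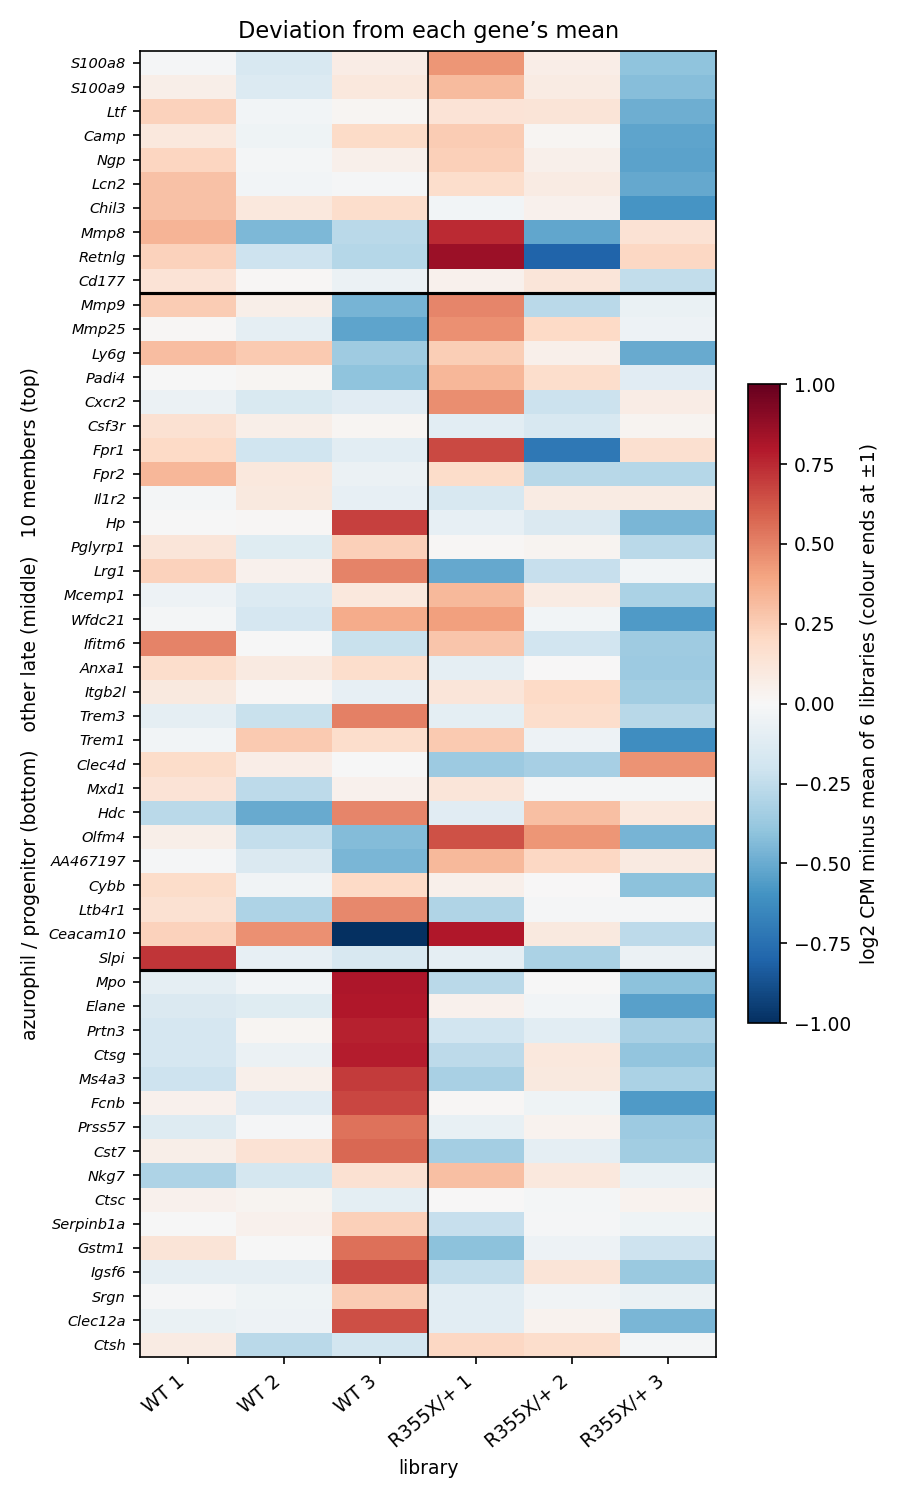
Log2 CPM (with 0.01 added) minus each gene's mean over the 6 libraries, in colour from -1 to 1, for the 10 members (top), 28 other late neutrophil genes (middle) and 16 azurophil granule and progenitor genes (bottom), with libraries in columns. The blue column of most members is mutant replicate 3, Mmp8 and Retnlg are red in mutant replicate 1 and blue in mutant replicate 2, and the red block at the bottom is wild-type replicate 3.

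The transcription factors of granulocyte development gave no calls either. Of 12 tested, 0 were called by edgeR, DESeq2 or limma-voom. Unadjusted p in edgeR fell below 0.05 for 2, Spi1 and Cebpa, both lower in the mutant. The same held for 4.80% of all tested genes with a lower level, and for 10.6% in either direction. Spi1, which encodes PU.1, measured 44.3 ± 2.56 CPM in wild-type against 37.9 ± 2.41 CPM in mutant libraries (adjusted p = 0.346), and Cebpa 17.7 ± 3.06 against 13.4 ± 2.96 CPM (adjusted p = 0.438). Cebpe, the factor of the specific granule stage, measured 7.24 ± 1.81 and 7.26 ± 1.58 CPM. The median log2 fold change of the 12 was -0.02, and 0.04 without wild-type replicate 3, where 0 had an unadjusted p under 0.05. The share of all tested genes under that p was not counted in that fit.

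Among 8 genes for receptors and partners of the proteins that the members encode, 7 were tested and 0 called by edgeR, DESeq2 or limma-voom. Unadjusted p in edgeR fell below 0.05 for 2 of the 7, both higher in the mutant. The same held for 10.6% of all tested genes in either direction. Slc22a17, which encodes a receptor for lipocalin 2, measured 7.01 ± 0.866 CPM in wild-type against 9.70 ± 0.327 CPM in mutant libraries (adjusted p = 0.271). The calprotectin receptor genes were present in these libraries, Tlr4 at 16.6 to 19.4 CPM and Ager at 1.19 to 1.78 CPM. Cd33 measured 65.8 ± 9.64 against 78.5 ± 9.68 CPM (adjusted p = 0.467).

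The stefin A genes, cysteine protease inhibitors that neutrophils also express, are listed apart from the 10 members. The summed CPM of the 6 tested stefin A genes was 0.491 to 1.11 in wild-type and 7.33 to 9.56 in mutant libraries, without overlap, while that of the 10 members was 3024 to 3488 and 2329 to 3898. Of these 6, Stfa1 and Cstdc5 were called as higher by edgeR, where 0.189% of all tested genes were. DESeq2 called the same 2 genes and gave no adjusted p to the other 4, and limma-voom called these 2 and Cstdc6. The split of reads within this closely related family is uncertain. In mutant replicates 1, 2 and 3 the summed list was at 9.56, 8.27 and 7.33 CPM, Stfa1 at 3.93, 2.61 and 2.54 CPM and Cstdc5 at 1.93, 2.65 and 2.85 CPM.

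The genes most like the group were found by correlating log2 CPM over the 6 libraries with the mean of the members' standardised values. The ranking held 11889 genes at a mean of at least 1 CPM outside the lists, with pseudogenes and symbols of the Gm and Rik series passed over. Ifit3 came first (r = 0.999), at 3.59, 2.85 and 3.16 CPM in wild-type against 3.85, 3.03 and 2.16 CPM in mutant libraries. Ccl5 (0.98), Pgr (0.97), Mpp7 (0.97), Gstp2 (0.97) and Morrbid (0.97) followed. These values come from 6 libraries ranked over all those genes and are given as a description. Of the members themselves, Ngp was closest to the shared profile (0.98) and Retnlg farthest (0.29). Each member is part of that mean, and most members share a pattern that Mmp8 and Retnlg do not. The order is thus partly set by how the profile was made.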

How the data were processed

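RNA sequencing libraries of 6 LSK samples, 3 per genotype as their titles group them, were compared. The deposited values are expected counts per gene, made by the authors with Trim Galore 0.60, STAR 2.7 and RSEM 1.31 on build mm10 per the submitters' processing notes, and not scaled for library size. The annotation release is not given in the sources used here. Per the labels' protocols, total RNA was amplified by single-primer isothermal amplification, which does not mark strand; no annotated gene overlaps a member. Expected counts share out reads of related genes.

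Counts were rounded, 92 spike-in rows at 0 were dropped, genes were filtered with filterByExpr and TMM factors were applied. The test was edgeR's quasi-likelihood test (4.0.16, two-sided, R 4.3.3), without covariates, with Benjamini-Hochberg adjustment over 20646 genes and a threshold of 0.05. Intervals are the fitted log2 fold change with its SE and the t distribution of the fit at 95%. Values after ± are SD with n = 3 unless stated. TPM used GENCODE M21 exon lengths. The scripts were tested on simulated data. The members and gene lists were chosen with earlier results of these data known. The text names all members, up to 4 genes of each list with the smallest p, the gate markers, Etv6 and the 6 most similar genes; other genes (Mmp9, Cxcr2, Ly6g, AA467197, Serpinb1a, Cebpe, Ager, Chil4) were named for their role or after their values were seen. Chi-square per gene between libraries of one genotype was 11.2 to 48.2, above sampling noise. Alternatives were DESeq2 1.42.0, limma-voom (limma 3.58.1), RLE factors, library size alone, other filters, a replicate block, leaving out ribosomal RNA and mitochondrial genes, and leaving out each library.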

Additional observations from a re-analysis of the deposited data

How the results depend on the processing

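The call of 0 members was the same under 13 of 14 alternatives. With no filter on low counts 1 member, Chil3, was called. The members' median log2 fold change ran from -0.13 to -0.09 over the alternatives that kept all libraries, and from -0.20 to 0.06 with a library left out. Without each library in turn the log2 fold changes ran from -0.12 to 0.29 for S100a8, -0.16 to 0.19 for S100a9, -0.23 to 0.050 for Ltf, -0.32 to 0.055 for Camp, -0.30 to 0.060 for Ngp, -0.28 to 0.038 for Lcn2, -0.068 to 0.58 for Mmp8, -0.15 to 0.64 for Retnlg and -0.13 to 0.050 for Cd177. Chil3 stayed below 0 throughout (-0.47 to -0.18). S100a9 was at -0.028 with library size alone. The median level of the members per length was 245 TPM, and 295 TPM with the longest transcript.

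Over all genes, 55 were called by the main test, 325 by DESeq2 and 527 with no filter on low counts, and 16 to 67 with a library left out. Etv6 passed with DESeq2 (log2 fold change -0.31, adjusted p = 0.0491) and with no filter (-0.30, adjusted p = 0.0111), and it ran from -0.39 to -0.22 with a library left out. The cause of these differences was not tested. With the replicate number as a block 32 genes and 0 members were called, and S100a9 was at -0.016. Deviations of same-numbered libraries correlated at -0.019, -0.019 and -0.076, so these libraries shared no clear deviation. The labels state no pairing, and these values cannot tell whether same-numbered samples were collected or handled together. In an alternative chosen after seeing the data, azurophil granule genes had a median of -0.075 without wild-type replicate 3. Members had 377 to 119480 counts per library, fewest for Mmp8, and each genotype had 3 libraries.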
